A study of Mus musculus with 8 samples.

Results

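Cholesterol and fatty acid synthesis genes were followed as a set of 33 genes chosen by their symbols. They are enzymes that build cholesterol from acetyl-CoA, enzymes that make, lengthen and desaturate fatty acids, and proteins that control the pathway or carry sterol. Of the 33, 31 stood in the table of 12417 entries, and *Scd1* and *Fads2* are not analysed here. All 31 had a mean of at least 1 TPM and were among the 10238 entries that were compared. TPM, the deposited measure, scales each gene's reads by its length and each library to the same total, so levels of different genes can be set side by side.

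The libraries came from donor CD4+ T cells sorted from the spleens of irradiated BALB/c recipients on d5 after alloHCT, 4 libraries of ST2fl/fl cells and 4 of ST2WT cells. ST2fl/fl cells were CD45.2+ and YFP+ and came from B6 mice of the genotype CD4-CrexR26-LSL-YFPxSt2fl/fl, in which a Cre driven by the CD4 promoter removes part of *Il1rl1* (St2), the gene of the IL-33 receptor chain ST2, and switches on a YFP reporter. This Cre acts in developing T cells, so CD8+ T cells and regulatory T cells of these mice carry the deletion too. ST2WT cells were CD45.1+ and YFP- and came from B6 St2+/+ mice. All recipients also received T cell-depleted WT B6 bone marrow, and both donor populations were given to the same recipients. Libraries with the same number were therefore taken to come from 1 recipient. The deletion, the Cre, the reporter and the CD45 allele differ together between the groups, so their effects cannot be told apart. The comparison asks whether donor CD4+ T cells without ST2 held different transcript levels of lipid synthesis genes.

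Cells make cholesterol in a chain of reactions that starts with acetyl-CoA, passes through mevalonate and the isoprenoids, commits to sterols at squalene and ends with trimming of the lanosterol ring. The transcription factor SREBP2 drives most of these genes when sterol in the endoplasmic reticulum is low, SREBP1 leans toward fatty acid genes, and the escort protein SCAP and the anchor INSIG1 set how much of either factor reaches the nucleus. T cells that have met antigen raise both pathways, since dividing cells need new membrane.

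Within the set, the lower levels in ST2fl/fl cells lay mostly in the cholesterol enzymes and were modest, and no gene passed the threshold. Of 31 genes, 0 were called at a Benjamini-Hochberg adjusted p under 0.05 with a fold change over 1.5 (limma on log2(TPM + 1)), where 0.518% of all genes were called. At an unadjusted p under 0.05, 7 were lower in ST2fl/fl cells, against a background of 6.8% of all genes, and 0 were higher, against 7.11%. These 7 were *Idi1*, *Fdps*, *Cyp51*, *Sqle*, *Fdft1*, *Pmvk* and *Msmo1*, and all are enzymes of cholesterol synthesis. By sign alone, 25 of 31 genes were lower in ST2fl/fl cells (48.3% of all genes), 10 were lower in all 4 recipients (14.6% of all genes), and 5 had every ST2fl/fl library below every ST2WT library (4.58% of all genes). The median difference on the log2 scale, ST2fl/fl minus ST2WT, was -0.12 over the 31 genes and 0.0095 over all genes. It was -0.19 over the 18 cholesterol enzymes, 17 of them lower, and -0.07 over the 8 fatty acid enzymes, 5 of them lower. Without both libraries of recipient 2 the median of the cholesterol enzymes was -0.11. In bulk libraries, fewer cells that express a gene and less RNA of it per cell cannot be told apart.

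**Figure D1:**
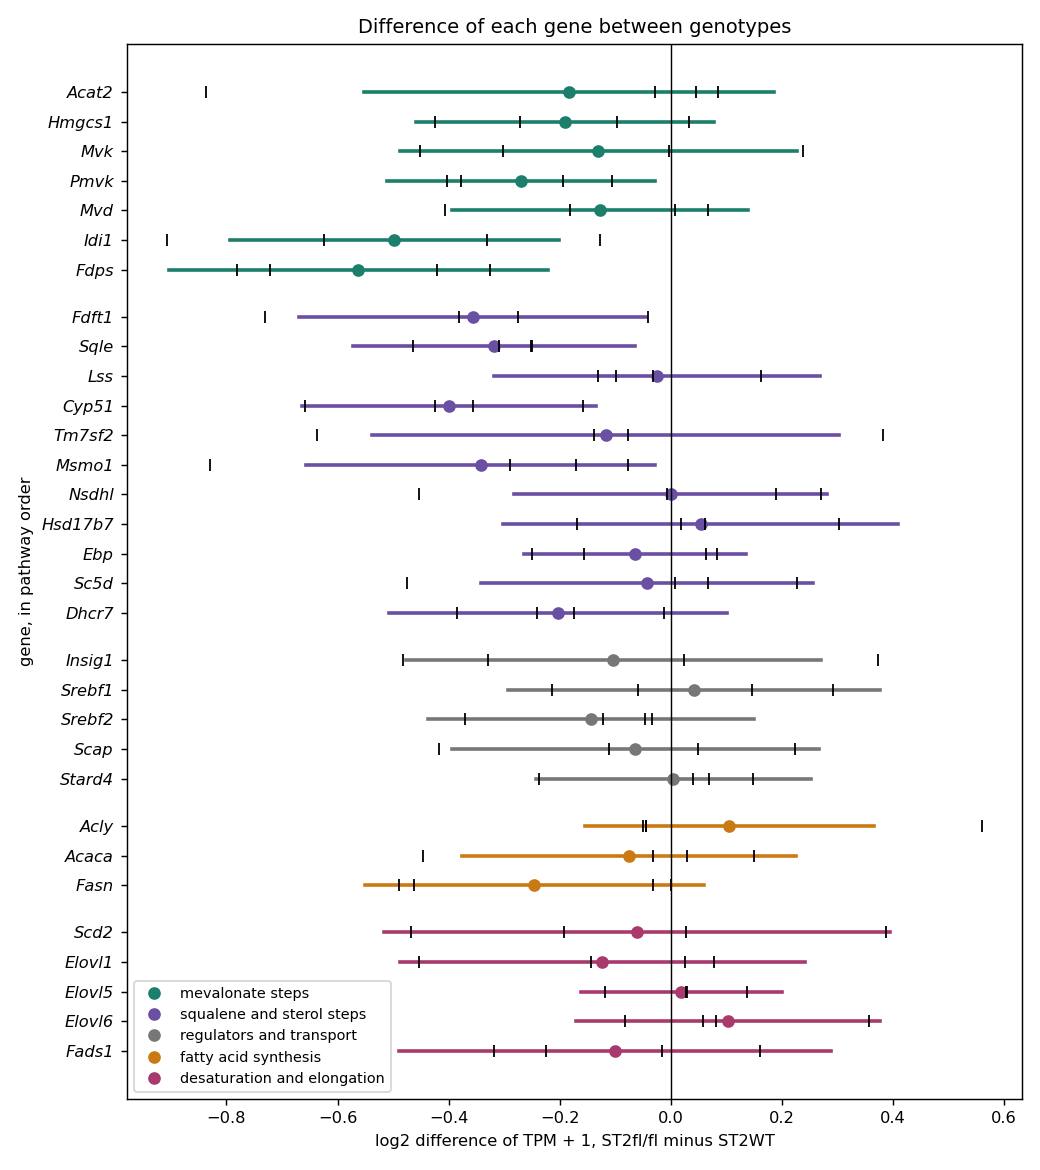
Difference of each of the 31 genes between ST2fl/fl and ST2WT cells, as log2(TPM + 1), ST2fl/fl minus ST2WT, in pathway order. Points are estimates, bars are 95% confidence intervals from limma, ticks are the 4 recipients, and the intervals of 7 cholesterol enzymes, all lower in ST2fl/fl cells, leave out 0.

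The promoters of 3 genes described below are shown. *Idi1* and *Cyp51* were taken because their groups did not overlap. *Hmgcs1* was taken because it held the only match to TCACNCCAC, a consensus of the sterol regulatory element. The groups of *Fdps*, *Sqle* and *Fdft1* did not overlap either, but no promoter was matched for these genes. Sequences are from RefSeq on GRCm38.p6, each of 300 bases from 250 before to 50 after the start, 5′ to 3′ on the gene's strand. *Idi1* is at chr13:8885356-8885655 on the plus strand, *Cyp51* at chr5:4104648-4104947 on the minus strand and *Hmgcs1* at chr13:119690101-119690400 on the plus strand. Capitals mark TCACNCCAC, CCAAT and GGGCGG on either strand, so ATTGG and CCGCCC are the last pair read backward. Other forms of the sterol regulatory element were not searched, so a promoter without a match was not shown to lack one. No match overlapped another.
Idi1: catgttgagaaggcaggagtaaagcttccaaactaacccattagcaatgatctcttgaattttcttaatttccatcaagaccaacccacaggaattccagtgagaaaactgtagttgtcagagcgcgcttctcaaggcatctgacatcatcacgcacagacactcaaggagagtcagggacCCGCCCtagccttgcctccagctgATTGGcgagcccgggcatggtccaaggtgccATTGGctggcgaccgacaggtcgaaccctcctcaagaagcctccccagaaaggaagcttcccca
Cyp51: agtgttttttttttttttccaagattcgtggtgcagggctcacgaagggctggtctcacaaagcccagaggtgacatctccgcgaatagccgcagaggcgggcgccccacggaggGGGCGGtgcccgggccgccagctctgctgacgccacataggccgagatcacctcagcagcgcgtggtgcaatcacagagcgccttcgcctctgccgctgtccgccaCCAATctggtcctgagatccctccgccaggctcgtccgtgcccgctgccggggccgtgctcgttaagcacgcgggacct
Hmgcs1: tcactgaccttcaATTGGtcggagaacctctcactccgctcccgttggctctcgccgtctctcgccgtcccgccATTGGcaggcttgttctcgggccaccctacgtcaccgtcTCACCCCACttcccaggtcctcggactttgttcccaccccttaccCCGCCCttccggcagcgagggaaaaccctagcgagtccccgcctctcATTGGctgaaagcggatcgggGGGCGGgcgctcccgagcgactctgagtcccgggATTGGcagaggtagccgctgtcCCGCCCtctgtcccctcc

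The *Hmgcs1* promoter held TCACCCCAC 137 bases before the start, with 4 CCAAT and 3 GGGCGG matches around it. The *Idi1* promoter held CCAAT matches 45 and 14 bases before the start and a GGGCGG match at 69. In *Cyp51* the CCAAT match lay 29 and the GGGCGG match 135 bases before the start. RefSeq promoters were matched for 25 of the 31 genes, with 32 promoters in all. *Fdps*, *Sqle*, *Fdft1*, *Stard4*, *Scd2* and *Fads1* had none, so they were not searched. TCACNCCAC stood in 3.12% of these 32, against 1.24% of all 32851 promoters and 1.14% of 9610 promoters of the genes compared. CCAAT stood in 68.8% (37.4% of all, 38.8% of those compared), GGGCGG in 75.0% (35.7% and 63.2%), and CACGTG, the E-box, in 21.9% (7.15% and 10.1%). A match gives only the letters of this window.

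Across the libraries, 1 stood apart before any gene was considered. The ST2WT library of recipient 2 deviated from its group mean with an SD of 0.465 on the log2 scale over all genes, against 0.242 to 0.279 in the other 7, and 9.18% of its TPM came from mitochondrial genes, with 12.7% to 13.8% in the rest. *Il1rl1* was listed at 14.9 to 17.7 TPM in ST2fl/fl libraries and 14.6 to 21.3 TPM in ST2WT libraries. A TPM summed over the whole gene does not show whether the floxed part was lost. All 6 CD4+ T cell markers were present and summed to 5905 to 6175 TPM in ST2fl/fl libraries and 4729 to 5249 TPM in ST2WT libraries, with *Cd3g* higher at an adjusted p of 0.0106 (limma). Of the defining markers of other cell types, 1 of 4 for B cells (*Cd79b*, 4.71 to 6.99 TPM in ST2fl/fl and 7.83 to 10.9 TPM in ST2WT libraries), 1 of 5 for myeloid cells (*Cd68*, 9.23 to 14.6 TPM in ST2fl/fl and 10.7 to 11.1 TPM in ST2WT libraries), 1 of 2 each for CD8+ T cells, NK cells and erythroid cells, and 0 of 2 for stroma stood in the table. The CD8+ T cell marker was *Cd8b1*, at 10.5 to 14.2 TPM in ST2fl/fl and 12.4 to 13.5 TPM in ST2WT libraries. Genes of DNA replication and mitosis, a list of 14 that marks proliferating cells, were lower in ST2fl/fl cells by sign for 14 of 14 (48.3% of all genes). Their median log2 difference was -0.26, and 6 were lower at an unadjusted p under 0.05 (6.8% of all genes). The part that these differences play in the lipid genes was not tested.

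Of the 5 gene groups, the mevalonate enzymes had the lowest summed level in ST2fl/fl cells relative to ST2WT cells. All 7 were lower by sign (48.3% of all genes), with a median log2 difference of -0.19. At an unadjusted p under 0.05, 3 of 7 were lower (6.8% of all genes). Their TPM summed to 180.3, 205.9, 218.4 and 217.2 in the ST2fl/fl libraries of recipients 1 to 4, against 253.3, 306.7, 252.7 and 259.3 in the ST2WT libraries. Every ST2fl/fl sum lay below every ST2WT sum. The means were 205 ± 17.7 TPM in ST2fl/fl and 268 ± 26.0 TPM in ST2WT libraries (SD, n = 4 each), so that ST2fl/fl cells held 76.7% of the ST2WT sum. The largest parts of this gap came from *Fdps* (means of 59.2 TPM in ST2fl/fl and 87.6 TPM in ST2WT libraries) and *Idi1* (33.6 and 48.4 TPM). Only these 2 of the 7 had groups that did not overlap.

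*Fdps* encodes farnesyl diphosphate synthase, which makes the isoprenoid from which both sterols and protein prenyl groups are drawn. It stood at 44.0, 66.5, 59.5 and 66.7 TPM in ST2fl/fl libraries and at 76.4, 110.3, 80.02 and 83.8 TPM in ST2WT libraries. The groups did not overlap, and the ST2fl/fl library of recipient 1 and the ST2WT library of recipient 2 were the lowest and highest of the 8. The log2 difference was -0.56 ± 0.15 (SE), with p = 0.00404 and adjusted p = 0.158 from limma, and the exact two-sided permutation test gave 0.0286, the smallest p that 70 labelings of 4 against 4 allow. With the recipient as a block, *Fdps* was the 1 gene of the set with an adjusted p under 0.05 (0.046, limma), where 1.39% of all genes reached that at any fold. Its fold of 1.48 stayed under the limit of 1.5.

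*Idi1* encodes isopentenyl diphosphate isomerase, which prepares the substrate of *Fdps*. It stood at 32.03, 32.5, 36.1 and 33.5 TPM in ST2fl/fl libraries and at 49.9, 61.9, 39.6 and 42.4 TPM in ST2WT libraries. The ST2fl/fl libraries lay within a narrow band below all ST2WT libraries, whose spread was wider. On the log2 scale the difference was -0.50 ± 0.13 (SE; p = 0.00365, adjusted p = 0.152, limma; 0.0286, exact permutation test). Without the ST2WT library of recipient 2 it was -0.38 (adjusted p = 0.0677, limma).

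*Pmvk*, the kinase that adds the second phosphate to mevalonate, was present at 39.1, 46.6, 52.7 and 47.5 TPM in ST2fl/fl libraries and 52.0, 53.4, 56.8 and 61.9 TPM in ST2WT libraries. It was lower in all 4 recipients, though the ST2fl/fl library of recipient 3 reached above the lowest ST2WT library. Its log2 difference was -0.27 ± 0.11 (SE; p = 0.0313, adjusted p = 0.312, limma; 0.0571, exact permutation test).

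*Hmgcs1* makes HMG-CoA, the entry to mevalonate, and its 300 bases of promoter carry the TCACNCCAC match printed above. It stood at 26.5, 26.7, 30.4 and 29.4 TPM in ST2fl/fl libraries and at 35.9, 26.1, 36.9 and 31.6 TPM in ST2WT libraries. The lowest value of all was the ST2WT library of recipient 2, and the other 3 ST2WT libraries lay above all ST2fl/fl libraries. Its log2 difference of -0.19 (95% interval -0.46 to 0.08, adjusted p = 0.488, limma) became -0.29 without that library (adjusted p = 0.132, limma).

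*Acat2*, the cytosolic thiolase that joins the first acetyl units, went the other way in that library. It had 21.0, 19.6, 23.6 and 20.8 TPM in ST2fl/fl libraries and 21.5, 35.8, 22.2 and 20.1 TPM in ST2WT libraries. Its groups differed only through the 35.8 TPM of recipient 2, and its log2 difference of -0.18 (95% interval -0.55 to 0.19) was -0.0015 without it. *Acat2* has a close paralog, *Acat3*, with which reads may be shared. *Mvk*, mevalonate kinase, averaged 3.43 ± 0.71 TPM in ST2fl/fl and 3.85 ± 0.75 TPM in ST2WT libraries (SD, n = 4 each). *Mvd*, the decarboxylase that follows *Pmvk*, averaged 13.3 ± 1.97 TPM in ST2fl/fl and 14.6 ± 0.96 TPM in ST2WT libraries (SD, n = 4 each), and both genes overlapped between groups.

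**Figure D2:**
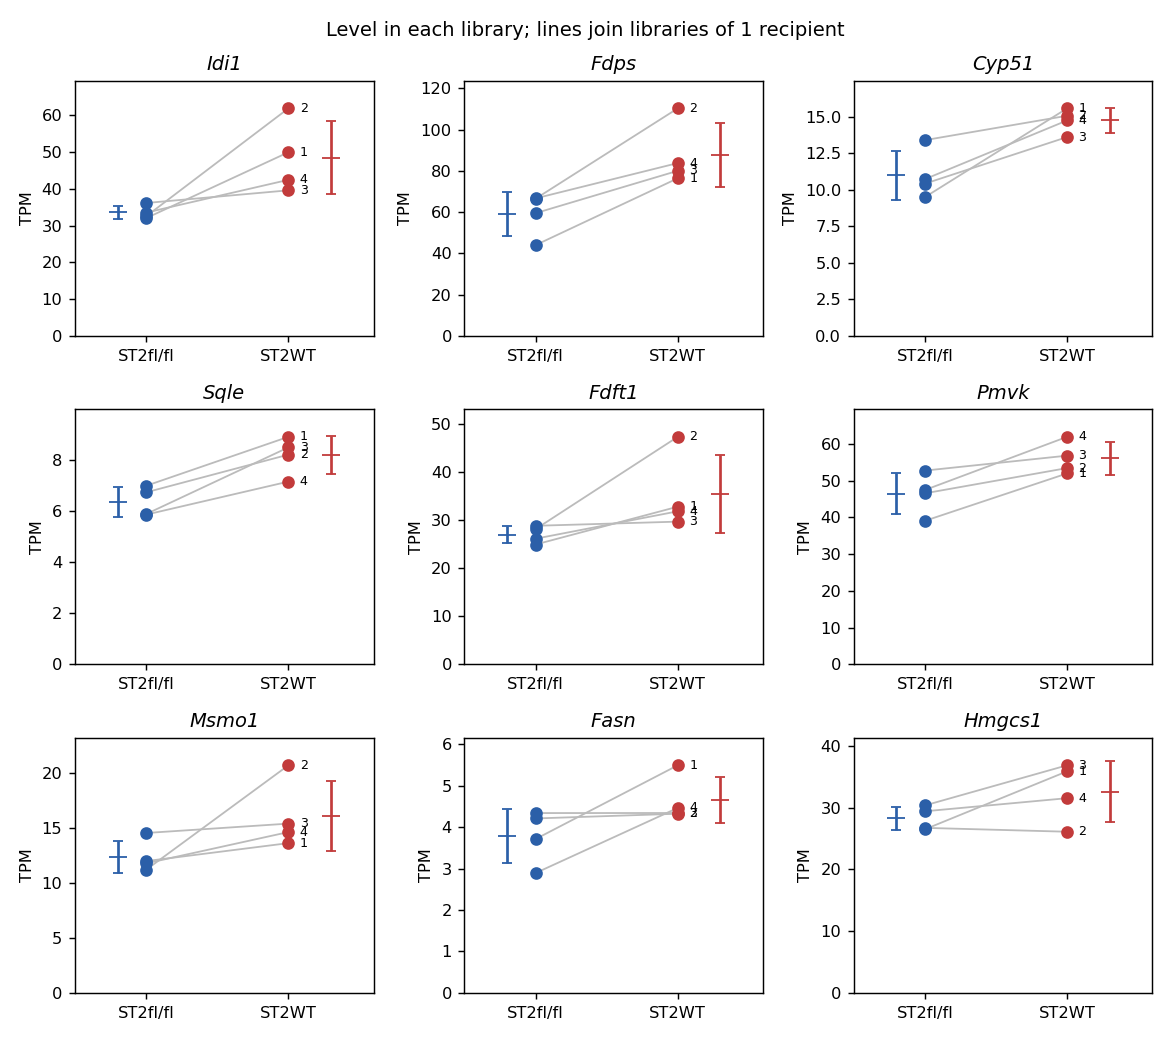
TPM of 9 genes in each library (linear axes from 0), ST2fl/fl left and ST2WT right, with lines joining the libraries of 1 recipient, recipient numbers beside the ST2WT points, and bars for mean and SD. *Idi1*, *Fdps*, *Cyp51*, *Sqle* and *Fdft1* do not overlap between groups, and ST2WT library 2 is the highest for *Idi1*, *Fdps*, *Fdft1* and *Msmo1* and the lowest for *Hmgcs1*.

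The enzymes that turn farnesyl diphosphate into cholesterol divided among themselves. By sign, 10 of 11 were lower in ST2fl/fl cells (48.3% of all genes), with a median log2 difference of -0.12. At an unadjusted p under 0.05, 4 were lower (6.8% of all genes). The 4 were *Fdft1*, *Sqle*, *Cyp51* and *Msmo1*, which are not an unbroken run of steps. *Lss*, which acts between *Sqle* and *Cyp51*, had a log2 difference of -0.02. Summed over the 11, ST2fl/fl libraries held 240.0, 250.2, 269.6 and 248.4 TPM and ST2WT libraries 263.4, 332.5, 258.7 and 258.5 TPM. The sums overlapped, and the ST2WT library of recipient 2 lay far above the rest. Without both libraries of recipient 2, the median log2 difference of the 11 was -0.0035, against -0.26 for the 7 mevalonate enzymes.

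*Cyp51*, the demethylase that takes the first methyl group from lanosterol, had 9.51, 13.4, 10.4 and 10.7 TPM in ST2fl/fl libraries and 15.6, 15.1, 13.6 and 14.8 TPM in ST2WT libraries. The groups did not overlap, by a narrow margin between the ST2fl/fl library of recipient 2 and the ST2WT library of recipient 3. The log2 difference was -0.40 ± 0.12 (SE; p = 0.00698, adjusted p = 0.196, limma; 0.0286, exact permutation test). Without both libraries of recipient 2 the difference was -0.48, with an adjusted p of 0.0375 (limma) and a fold still under the limit.

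*Sqle* is squalene epoxidase, which adds the first oxygen and is a rate-limiting step. It had 6.99, 6.73, 5.88 and 5.86 TPM in ST2fl/fl libraries and 8.91, 8.21, 8.49 and 7.15 TPM in ST2WT libraries. All ST2fl/fl libraries lay below all ST2WT libraries, and no library stood apart. For *Sqle* the log2 difference was -0.32 ± 0.12 (SE; p = 0.0188, adjusted p = 0.268, limma; 0.0286, exact permutation test).

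*Fdft1*, squalene synthase, commits farnesyl diphosphate to sterols. It had 25.0, 28.2, 28.9 and 26.2 TPM in ST2fl/fl libraries and 32.8, 47.4, 29.7 and 31.9 TPM in ST2WT libraries. The groups did not overlap, and the value of 47.4 TPM in ST2WT library 2 lay well above the others. The log2 difference was -0.36 ± 0.14 (SE; p = 0.0288, adjusted p = 0.308, limma; 0.0286, exact permutation test) and -0.21 without that library (adjusted p = 0.208, limma), a change of over 1.5 times. An exon of *Fdft1* overlaps *Ctsb* on the other strand, and *Ctsb* was at 96.4 to 112.2 TPM in ST2fl/fl libraries and 87.6 to 177.5 TPM in ST2WT libraries, highest in the same library. Whether strand was used in counting is not given in the sources used here, so reads of this pair may be mixed. The same holds for *Cyp51* and *Akap9* (3.34 to 4.78 TPM in ST2fl/fl and 3.13 to 3.98 TPM in ST2WT libraries), *Srebf1* and *Rai1* and, on the same strand, *Tm7sf2* and *Vps51*, while *Idi1*, *Fdps*, *Hmgcs1*, *Lss*, *Scap*, *Scd2* and *Elovl6* overlap annotated genes that are not listed in the table.

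*Msmo1*, the sterol methyl oxidase that acts on the C4 methyl groups, had 12.01, 11.2, 14.6 and 11.8 TPM in ST2fl/fl libraries and 13.7, 20.7, 15.4 and 14.7 TPM in ST2WT libraries. It was lower in all 4 recipients, with 1 ST2fl/fl library above the lowest ST2WT library. For *Msmo1* the log2 difference was -0.34 ± 0.14 (SE; p = 0.0354, adjusted p = 0.327, limma; 0.0571, exact permutation test) and -0.22 without ST2WT library 2 (unadjusted p = 0.0587, limma), again a change of over 1.5 times.

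*Dhcr7*, the reductase that finishes cholesterol, had 4.82, 5.01, 4.37 and 3.24 TPM in ST2fl/fl libraries and 5.57, 5.06, 5.34 and 4.54 TPM in ST2WT libraries. It was lower in all 4 recipients and the groups overlapped (log2 difference -0.20, 95% interval -0.51 to 0.10, limma). Without ST2fl/fl library 4, the lowest of the 8, the difference was -0.09. The enzymes between *Msmo1* and *Dhcr7* had close means in both genotypes. *Nsdhl*, the C4 decarboxylase, averaged 18.5 ± 1.93 TPM in ST2fl/fl and 18.5 ± 2.75 TPM in ST2WT libraries (SD, n = 4 each), and counts as lower by sign only through the fifth decimal of its log2 difference. *Ebp*, the sterol isomerase, had the highest mean level of the set (108 TPM over all libraries) and averaged 105.5 ± 4.79 TPM in ST2fl/fl and 110.7 ± 11.4 TPM in ST2WT libraries (SD, n = 4 each). Its 95% interval ran between -0.26 and 0.13 on the log2 scale.

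*Sc5d*, the C5 desaturase, averaged 60.1 ± 7.61 TPM in ST2fl/fl and 62.4 ± 11.6 TPM in ST2WT libraries (SD, n = 4 each). *Lss*, which closes the sterol ring, averaged 2.55 ± 0.29 TPM in ST2fl/fl and 2.62 ± 0.45 TPM in ST2WT libraries. For *Tm7sf2*, a sterol reductase, the means were 2.38 ± 0.78 TPM in ST2fl/fl and 2.60 ± 0.45 TPM in ST2WT libraries. *Hsd17b7*, a ketosteroid reductase, was the 1 enzyme of the 18 higher by sign, at 1.84 ± 0.32 TPM in ST2fl/fl and 1.76 ± 0.48 TPM in ST2WT libraries. All 4 overlapped between groups.

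**Figure D3:**
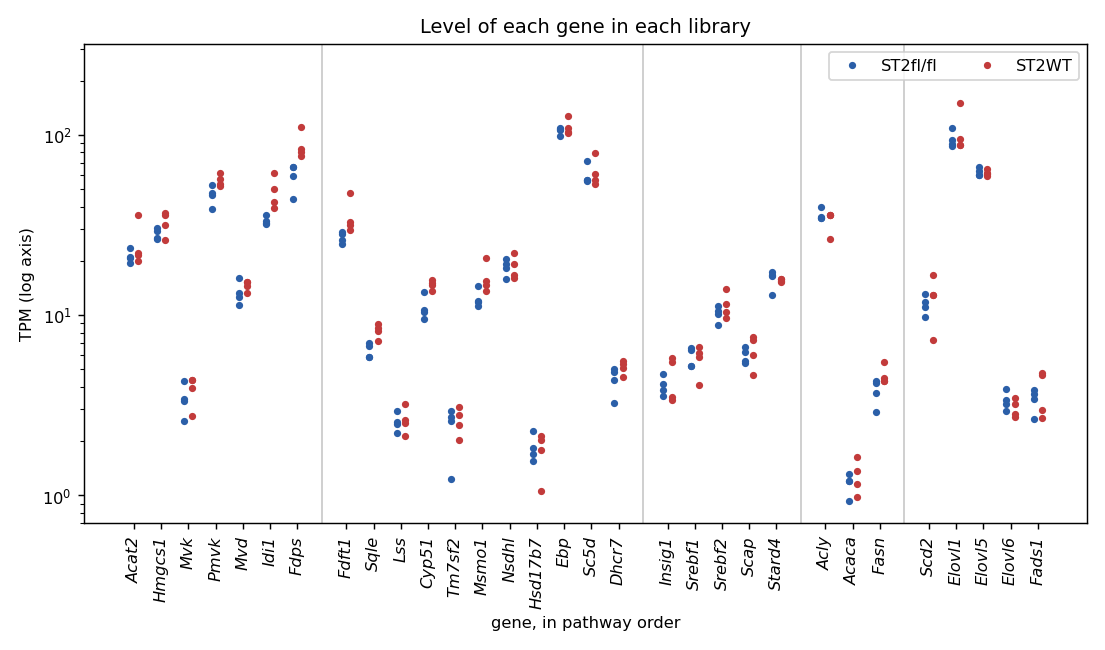
TPM of the 31 genes in each library on a log axis, in pathway order from mevalonate steps at the left to desaturation and elongation at the right, with vertical lines between the 5 groups. Mean levels run from 1.23 TPM for *Acaca* to 108 TPM for *Ebp*, and for most genes the 4 ST2fl/fl and 4 ST2WT libraries overlap.

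The genes that control the pathway had close levels in both genotypes. Of 5, 3 were lower and 2 higher by sign, with a median log2 difference of -0.06 and 0 at an unadjusted p under 0.05. *Srebf2*, which encodes SREBP2, had 10.6, 8.78, 10.1 and 11.2 TPM in ST2fl/fl libraries and 14.0, 9.64, 10.4 and 11.6 TPM in ST2WT libraries. It was lower in all 4 recipients, mostly by small amounts, and the 95% interval of its log2 difference of -0.14 ran between -0.44 and 0.15. Without ST2WT library 1, the highest of the 8, the difference was -0.05, and without ST2fl/fl library 2 it was -0.08. *Srebf1*, which encodes SREBP1, had 6.59, 5.24, 6.39 and 5.21 TPM in ST2fl/fl libraries and 5.85, 4.09, 6.70 and 6.20 TPM in ST2WT libraries, with no common direction over recipients (log2 difference 0.04, 95% interval -0.29 to 0.38). SREBP is controlled largely by cleavage of the protein, which transcript levels do not show.

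*Scap*, the escort of SREBP, had 5.43, 5.60, 6.22 and 6.68 TPM in ST2fl/fl libraries and 7.59, 4.65, 5.98 and 7.30 TPM in ST2WT libraries. The ST2WT libraries lay on both sides of the ST2fl/fl range (log2 difference -0.06, 95% interval -0.39 to 0.27). *Insig1*, the sterol-sensing anchor and itself an SREBP target, had 4.70, 4.16, 3.86 and 3.57 TPM in ST2fl/fl libraries and 3.40, 5.49, 5.78 and 3.50 TPM in ST2WT libraries. It was lower in recipients 2 and 3 and higher in recipients 1 and 4 (log2 difference -0.10, 95% interval -0.48 to 0.27). *Stard4*, which carries sterol between membranes, had 17.3, 16.7, 16.4 and 12.9 TPM in ST2fl/fl libraries and 15.5, 15.8, 16.0 and 15.4 TPM in ST2WT libraries. Its ST2WT values were nearly level, and 3 of 4 recipients were slightly higher in ST2fl/fl cells (log2 difference 0.0049, 95% interval -0.24 to 0.25).

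The fatty acid enzymes gave no gene at an unadjusted p under 0.05. Summed over the 8, ST2fl/fl libraries held 207.8, 237.0, 207.6 and 212.8 TPM and ST2WT libraries 225.4, 256.0, 214.9 and 207.6 TPM. The sums overlapped, with means of 216 ± 14.0 TPM in ST2fl/fl and 226 ± 21.3 TPM in ST2WT libraries (SD, n = 4 each). ST2fl/fl cells thus held 95.7% of the ST2WT sum for fatty acid enzymes and 83.7% for cholesterol enzymes (457.5 ± 28.2 against 546.3 ± 62.1 TPM). For recipients 1 to 4 the ratio of the cholesterol sums was 0.81, 0.71, 0.95 and 0.90. *Elovl1* and *Elovl5* were the largest parts of the fatty acid sum (means of 94.7 and 62.4 TPM in ST2fl/fl libraries). The synthesis enzymes *Acly*, *Acaca* and *Fasn* held 103.6%, with a ratio above 1 only in recipient 2 (1.41). Desaturation and elongation enzymes held 94.1%. Without both libraries of recipient 1, the median of the fatty acid enzymes was 0.03 in place of -0.07.

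*Fasn*, fatty acid synthase, had 3.71, 4.34, 4.21 and 2.89 TPM in ST2fl/fl libraries and 5.49, 4.34, 4.32 and 4.46 TPM in ST2WT libraries. The genotypes were level in recipients 2 and 3 and apart in recipients 1 and 4. The log2 difference was -0.25 (95% interval -0.55 to 0.06, adjusted p = 0.438, limma; 0.0571, exact permutation test), and -0.15 without ST2fl/fl library 4. *Fasn* is also on a list of Myc targets that the study read from these libraries, so its direction is no independent evidence. *Acly*, which supplies cytosolic acetyl-CoA to both pathways, had 34.9, 39.7, 34.7 and 34.7 TPM in ST2fl/fl libraries and 36.2, 26.6, 35.8 and 35.8 TPM in ST2WT libraries. Recipient 2 alone set the genotypes apart, and the log2 difference of 0.10 (95% interval -0.16 to 0.37) was 0.00045 without ST2WT library 2. *Acaca*, the carboxylase that makes malonyl-CoA, had 0.938, 1.21, 1.20 and 1.32 TPM in ST2fl/fl libraries and 1.64, 1.16, 0.986 and 1.37 TPM in ST2WT libraries, the lowest mean of the set and overlapping (95% interval -0.38 to 0.23).

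*Scd2*, which puts a double bond into saturated chains, had 11.9, 9.82, 11.2 and 13.2 TPM in ST2fl/fl libraries and 16.8, 7.27, 12.9 and 12.9 TPM in ST2WT libraries. The ST2WT libraries held both the highest and the lowest value (log2 difference -0.06, 95% interval -0.52 to 0.39). The elongase of saturated very long chains, *Elovl1*, averaged 94.7 ± 10.4 TPM in ST2fl/fl and 105.6 ± 30.3 TPM in ST2WT libraries (SD, n = 4 each), with 150.7 TPM in ST2WT library 2. It overlaps an exon of *Cdc20*, a mitosis gene on the other strand, which had its highest value of 142.3 TPM in the same library. *Elovl5*, the elongase of polyunsaturated chains, averaged 62.4 ± 3.06 TPM in ST2fl/fl and 61.5 ± 2.63 TPM in ST2WT libraries, with a 95% interval of -0.16 to 0.20 on the log2 scale. *Elovl6*, which extends palmitate, averaged 3.36 ± 0.40 TPM in ST2fl/fl and 3.06 ± 0.34 TPM in ST2WT libraries. *Fads1*, a desaturase of polyunsaturated chains, averaged 3.40 ± 0.52 TPM in ST2fl/fl and 3.78 ± 1.10 TPM in ST2WT libraries (SD, n = 4 each).

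**Figure D4:**
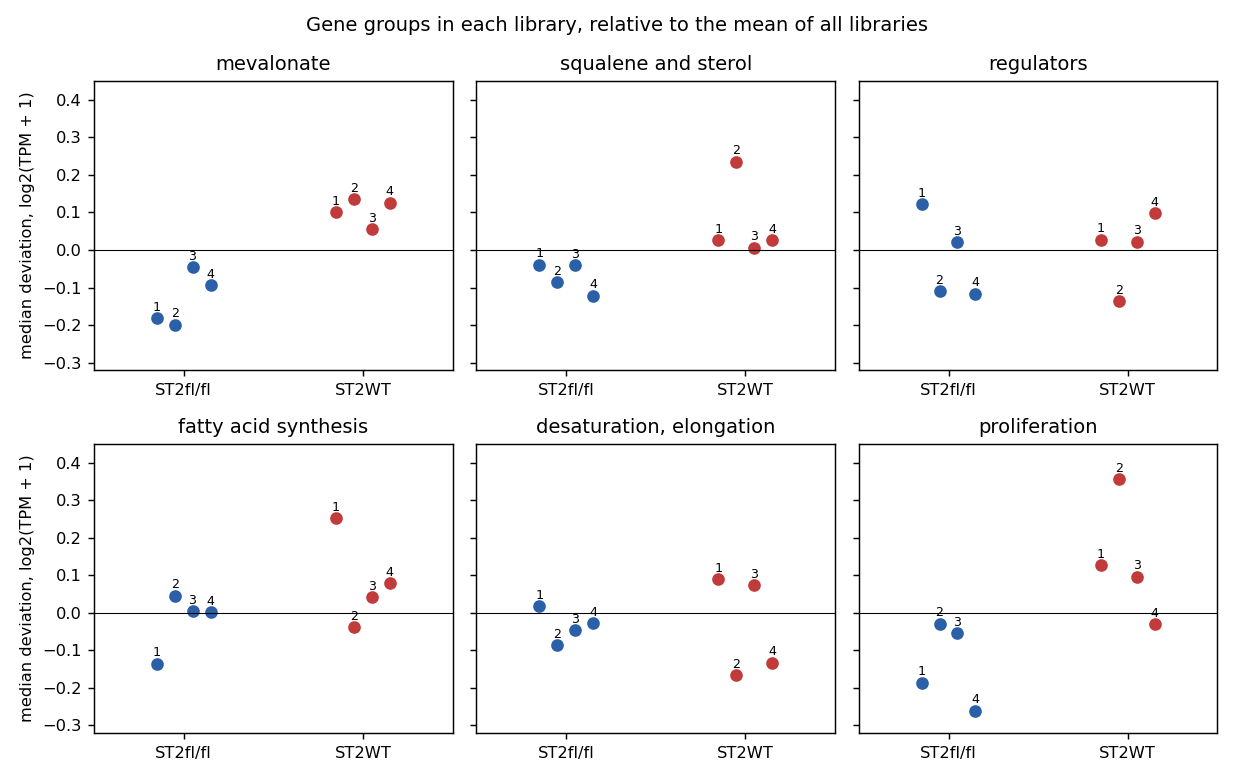
Median deviation of each gene group from the mean of all libraries, as log2(TPM + 1), in each library, numbered by recipient, ST2fl/fl left and ST2WT right. The mevalonate and the squalene and sterol groups lie lower in all ST2fl/fl libraries than in all ST2WT libraries, and the other 3 lipid groups overlap. For squalene and sterol steps the gap is narrow (-0.039 in ST2fl/fl library 1, 0.0064 in ST2WT library 3), and their summed TPM overlap. Without both libraries of recipient 2 their median log2 difference is -0.0035. ST2WT library 2 is the highest for squalene and sterol steps and for the proliferation list.

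With the recipient as a block in the same limma fit, 7 genes of the set were lower at an unadjusted p under 0.05 (10.3% of all genes) and 0 were higher (9.94% of all genes), and 0 passed both limits. Medians per recipient, over the 18 cholesterol enzymes, were -0.16, -0.43, -0.12 and -0.17 for recipients 1 to 4, so the direction was shared and recipient 2 was the widest. Over the 8 fatty acid enzymes they were -0.18, 0.06, -0.04 and 0.03, with no common direction. *Fdps*, *Sqle* and *Cyp51* each had a log2 difference of -0.16 or lower in every recipient.

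Some genes that lie beside these pathways differed as much as genes of the set. *Fabp5* (-0.88) and *Mylip* (0.58) moved by more than any gene of the set, whose widest log2 difference was -0.56 (*Fdps*). Of 10 tested in a list of SREBP regulation and targets, 1 was lower and 0 were higher at an unadjusted p under 0.05, with a median log2 difference of 0.0017. The lower one was *Fabp5*, a fatty acid-binding protein, at 18.0 ± 4.31 TPM in ST2fl/fl and 34.0 ± 8.36 TPM in ST2WT libraries (SD, n = 4 each). Its log2 difference was -0.88 ± 0.19 (SE; adjusted p = 0.0783, limma, and 0.0072 with the recipient as a block, which also passes the fold limit). Of 8 LXR targets and sterol efflux genes, 0 were lower and 2 higher at an unadjusted p under 0.05, and their median was 0.06. Over all genes, 6.8% were lower and 7.11% higher at that limit. *Npc2*, which hands cholesterol out of the lysosome, averaged 129 ± 1.49 TPM in ST2fl/fl and 102 ± 5.0 TPM in ST2WT libraries (SD, n = 4 each; log2 difference 0.33 ± 0.07, SE; adjusted p = 0.0835, limma). *Mylip*, the ligase that marks lipoprotein receptors for breakdown and an LXR target, averaged 9.14 ± 1.58 TPM in ST2fl/fl and 5.78 ± 1.121 TPM in ST2WT libraries (log2 difference 0.58 ± 0.16, SE; adjusted p = 0.152, and 0.046 with the block, limma). Both were higher in all 4 recipients.

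Of 13 genes that use isoprenoids for prenylation, dolichol and coenzyme Q, 0 passed an unadjusted p under 0.05 in either direction. By sign, 10 were lower (48.3% of all genes), with a median log2 difference of -0.12. Among them *Pdss1*, which builds the coenzyme Q tail, averaged 7.28 ± 1.084 TPM in ST2fl/fl and 9.65 ± 2.45 TPM in ST2WT libraries (SD, n = 4 each), lower in all 4 recipients.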

How the data were processed

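Donor CD4+ T cells were sorted into SmartSeq lysis buffer, and Nextera XT libraries were made. The authors aligned reads to GRCm38.p6 in CLC Genomics Workbench and deposited TPM for 8 libraries. Their own test used edgeR on reads, which TPM do not keep, so depth and counting error per library are unknown. No entry is 0, so only genes detected in all libraries are listed. Entries were kept at a mean of 1 TPM or more (10238 of 12417), and log2(TPM + 1) was fitted in limma 3.58.1 (R 4.3.3), so fold changes of low genes are understated, with variances following a trend and no covariate. P-values were adjusted over all entries (Benjamini-Hochberg), and calls needed an adjusted p under 0.05 and a fold over 1.5. Exact two-sided permutation tests used the 70 labelings, which do not keep the pairing by recipient. The fits were tested on simulated data whose planted differences were larger than any of this set and which held no recipient effect. Deviations from the group means correlated between libraries of the same number (0.195, 0.352, 0.118 and 0.163, against -0.283 to 0.109 for different numbers), so the numbers were taken to pair libraries by recipient, as the study's cotransfer design does. The labels name no recipient, and no separate donor animals are named, so p-values measure the spread between these libraries. Alternatives changed the pseudocount (0.1 or 5), filter, scaling, variance model, library weights, block and libraries. Values per library are given for the 12 genes with the smallest p, the regulators, *Fasn*, *Acaca*, *Acly* and *Scd2*, and other lists name up to 4 genes with the smallest p. *Ctsb*, *Cdc20*, *Akap9*, *Rai1*, *Vps51*, *Acat3*, *Il1rl1*, *Cd3g*, *Cd8b1*, *Cd68* and *Cd79b* fall outside this rule and were picked with their values known. The members and lists were chosen with earlier results of these data known. Gene overlaps are from GENCODE M21 on GRCm38. Figures were drawn with matplotlib 3.10.9.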

Additional observations from a re-analysis of the deposited data

Results flagged for a closer look

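In 6 of 62 groups of 4 libraries, 1 per gene and genotype, the highest or lowest library stood far from the rest (Dixon's test at 95%, where chance gives about 1 in 20). ST2WT library 2 accounted for 3 of them: *Acat2* at 35.8 TPM (others 20.1 to 22.2), *Acly* at 26.6 TPM (others 35.8 to 36.2) and *Elovl1* at 150.7 TPM (others 87.7 to 95.6). It was high for *Acat2* and *Elovl1* and low for *Acly*. *Acly* also had 39.7 TPM in ST2fl/fl library 2 (others 34.7 to 34.9), so both libraries of recipient 2 stood out for it, in opposite directions. *Sc5d* had 71.5 TPM in ST2fl/fl library 3 (others 55.8 to 56.6). *Fasn* had 5.49 TPM in ST2WT library 1 (others 4.32 to 4.46).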

How the results depend on the processing

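Under every alternative run, 0 genes of the set were called, and of 433 values of named genes 404 kept their sign. *Idi1*, *Fdps*, *Cyp51*, *Sqle*, *Fdft1*, *Pmvk* and *Msmo1* were lower in all of them. Leaving out 1 library or recipient, the genes lower at an unadjusted p under 0.05 numbered 2 (without recipient 1) to 7, with 3 without ST2fl/fl library 4 and 4 without ST2fl/fl library 1 or recipient 4, and the causes were not tested. The corresponding ranges of the median log2 difference were -0.149 to -0.0466 for all 31 genes, -0.262 to -0.107 for cholesterol enzymes, -0.289 (without ST2WT library 2) to -0.165 for mevalonate steps, -0.205 to -0.00349 for squalene and sterol steps, -0.0852 to 0.0031 for regulators, -0.149 to 0.0492 for fatty acid synthesis, -0.107 to 0.0193 for desaturation and elongation and -0.108 to 0.0321 for all fatty acid enzymes. For single genes they were -0.149 to 0.0492 (*Acaca*), -0.273 to 0.0342 (*Acat2*), -0.0466 to 0.157 (*Acly*), -0.262 to 0.0225 (*Insig1*), -0.186 to 0.0533 (*Scap*), -0.279 to 0.0899 (*Scd2*), -0.0852 to 0.127 (*Srebf1*), -0.0428 to 0.0942 (*Stard4*), -0.212 to -0.0481 (*Srebf2*), -0.267 to -0.0948 (*Dhcr7*), -0.328 to -0.15 (*Fasn*) and, lowest without ST2WT library 2 and highest without recipient 1, -0.289 to -0.112 (*Hmgcs1*).

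A filter at 5 TPM left fewer genes and gave medians of 0.105 for fatty acid synthesis and -0.319 for squalene and sterol steps. Array weights gave 0.00162 for desaturation and elongation, -0.00573 for *Acly* and -0.0469 for *Srebf1*. Quantile normalisation gave -0.0152 for *Srebf1* and -0.00155 for *Stard4*, and equal library medians -0.0283 for *Stard4*. With the replicate block and without recipient 2, chosen after seeing the data, medians were -0.0466 for all 31 genes and -0.00349 for squalene and sterol steps, and values were 0.0342 for *Acat2*, -0.0466 for *Acly*, -0.0417 for *Srebf1* and -0.0165 for *Stard4*. An adjusted p under 0.05 at a fold under 1.5 came from array weights (*Cyp51* 0.0396, *Idi1* 0.0419), from leaving out recipient 2 (*Cyp51* 0.0375) and from the replicate block (*Fdps* 0.046, and 0.0427 without recipient 2). The block changed no other call of the set.

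Over the whole table, 53 genes were called, against 95 with the replicate block, 118 with it and without recipient 2, 130 with array weights, 32 with a pseudocount of 5 and 9 (without recipient 1) to 105 (without recipient 2) with libraries left out. Without ST2WT library 2 alone, 104 were called. The depth of the libraries is unknown, so the counting error of genes near 1 TPM cannot be given.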

Other observations

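No gene of the lists for fatty acid oxidation or for chain extension and activation passed adjustment. Of 17 fatty acid oxidation genes, 3 were lower (6.8% of all genes) and 0 higher (7.11%) at an unadjusted p under 0.05. By sign, 13 were lower (48.3% of all genes). The median log2 difference of the 17 was -0.17, close to the -0.19 of the 18 cholesterol enzymes. *Hadh*, which oxidises hydroxyacyl-CoA in mitochondria, averaged 22.0 ± 2.93 TPM in ST2fl/fl and 31.99 ± 4.73 TPM in ST2WT libraries (SD, n = 4 each; log2 difference -0.52, adjusted p = 0.127, limma). *Cpt2*, which takes acyl chains off carnitine inside mitochondria, averaged 8.82 ± 1.29 TPM in ST2fl/fl and 13.2 ± 2.66 TPM in ST2WT libraries (log2 difference -0.52, adjusted p = 0.206, limma). *Etfb*, an electron carrier of this pathway, averaged 485 ± 19.0 TPM in ST2fl/fl and 555 ± 9.93 TPM in ST2WT libraries (log2 difference -0.19, adjusted p = 0.202, limma).

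Of 9 genes tested for fatty acid chain extension and activation, 1 was lower and 1 higher at an unadjusted p under 0.05, where 6.8% of all genes were lower and 7.11% higher. *Hacd3*, a dehydratase of the elongation cycle, averaged 40.3 ± 2.45 TPM in ST2fl/fl and 55.2 ± 13.1 TPM in ST2WT libraries (log2 difference -0.42, adjusted p = 0.242, limma). *Dgat1*, which makes triglyceride, averaged 16.6 ± 3.81 TPM in ST2fl/fl and 12.1 ± 0.53 TPM in ST2WT libraries (log2 difference 0.41, adjusted p = 0.274, limma).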
